A study of Sus scrofa with 6 samples.

Results

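Microtubules are hollow filaments built from dimers of alpha tubulin and beta tubulin, and gamma tubulin starts their growth at centrosomes and other organising sites. A cell carries a family of tubulin genes, the isotypes, whose proteins are nearly alike except at their tails, and it tunes filament growth with proteins that hold free dimers, track growing ends or modify the tubulin tails. In epithelial cells, microtubules carry vesicles along the apical to basal axis between divisions and form the spindle at mitosis.

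The data described here concern 8 genes of this system out of 31908 listed gene IDs: the beta tubulins TUBB, TUBB4B and TUBB6, the alpha tubulin TUBA1C, the gamma tubulin TUBG1, the dimer-binding protein stathmin (STMN1), the tubulin tyrosine ligase-like protein TTLL12 and the plus-end tracking protein EB1 (MAPRE1). Of these, 7 were found by the deposited gene name, and TUBA1C, which had no deposited name, was found by its description. The genes were chosen by name, with earlier results of the same libraries known.

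IPEC-J2, a line of porcine small intestinal epithelial cells, was given PBS (CON, n = 3) or 50 μM chenodeoxycholic acid (CDCA, n = 3), a primary bile acid, and RNA was taken after 24 h. The samples therefore represent 1 cell line, 1 dose and 1 time point, and nothing in the labels says whether the 3 libraries of a group came from separate cultures, so p-values measure the spread between these libraries only. Abundance is given in transcripts per 1000000 (TPM), summed here over the listed transcripts of each gene. TPM correct for transcript length, so levels of different genes can be set side by side, but a value does not tell how many reads it rests on, and its counting error is unknown. The listed rows of a library added up to 351770 to 366073 TPM, well short of the 1000000 of a full library, so a gene's value covers its listed transcripts only.

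Markers of the labelled cell type were present in part. Of 11 intestinal epithelial markers found, 7 reached a mean of 1 TPM, among them EPCAM (121.9 TPM in CON and 160.2 TPM in CDCA) and KRT8 (226 and 208.5 TPM), whereas CDH1, VIL1, OCLN and CDX2 were listed under 1 TPM. The markers summed to between 1131 and 1164 TPM in CON and between 1444 and 1590.0 TPM in CDCA. The tight junction genes CLDN4 and CLDN1 moved in opposite directions, CLDN4 being called higher (225 to 806.5 TPM) and CLDN1 lower (474 to 202 TPM). Without CLDN4 the sum was 894 to 949 TPM in CON and 679 to 727 TPM in CDCA. None of 8 fibroblast markers reached 1 TPM, and the immune marker PTPRC was listed at 0 in all CON libraries. Of 9 immune and endothelial markers, 3 reached a mean of 1 TPM. These were CD14 (0.997 TPM in CON and 1.48 TPM in CDCA), PECAM1 (1.92 and 1.22 TPM) and CD68. The 9 immune and endothelial markers summed to between 3.5 and 5.24 TPM in CON and between 8.67 and 9.17 TPM in CDCA, mostly through CD68, a lysosomal protein gene that rose from 0.0867 to 4.84 TPM. Their part in the results below was not tested.

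Differences were tested by limma on log2(TPM + 1) over 8708 genes, those whose mean reached 1 TPM. The added 1 TPM shrinks the fold changes of genes at low levels. A gene is said to have risen or fallen where the FDR was under 0.05, and to be called where its log2 fold change also exceeded 1 in size.

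With CDCA, mRNA of several of the tubulins and of stathmin was lower. All 8 genes were tested, and 5 of them fell: TUBB6 to 0.199 times its CON level, STMN1 to 0.343, TUBB4B to 0.534, TTLL12 to 0.721 and TUBB to 0.745 times. TUBA1C, TUBG1 and MAPRE1 did not pass the test, and none of the 8 rose. TUBB6 and STMN1 were called lower, as were 3.9% of all tested genes. Many genes differed between these groups: 5 of 8 members of the set fell against 23.9% of all tested genes, and 5 of 8 had their highest CDCA value under their lowest CON value, against 27.8% of all tested genes. Among all tested genes, 3.51% were called higher (7.42% in either direction), 29.3% rose (53.2% passed in either direction), and 33.7% had every CDCA value above CON (61.5% were apart in either direction). The median log2 fold change of the 8 genes was -0.44, and that of all tested genes was 0.05. In RNA from whole cultures, fewer cells of a type and less RNA per cell cannot be told apart.

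**Figure D1:**
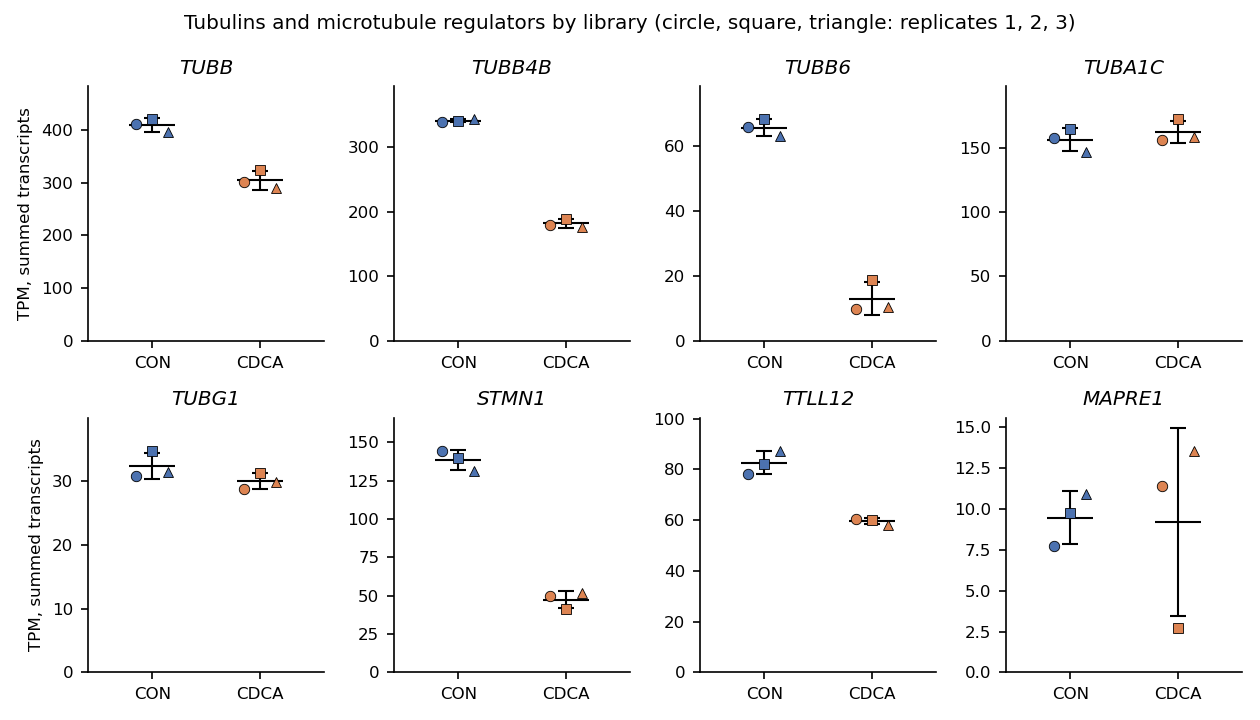
TPM of each gene in the 3 CON libraries (blue) and the 3 CDCA libraries (orange), with the mean and SD in black and each axis starting at 0. The groups are apart for TUBB, TUBB4B, TUBB6, STMN1 and TTLL12 and overlap for TUBA1C, TUBG1 and MAPRE1, where CDCA replicate 2 lies far below the others at 2.71 TPM.

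Of the dimer-forming beta tubulins, TUBB, the class I isotype found in most cell types, was the most abundant of the 8 genes in both groups. It was listed at 412, 419.9 and 395 TPM in CON replicates 1 to 3 and at 300.2, 324 and 289 TPM in CDCA replicates 1 to 3. The highest CDCA library stayed below the lowest CON library. Its mean fell from 409 ± 13 to 305 ± 18 TPM (SD, n = 3), a log2 fold change of -0.42 (limma FDR 0.00063, SE 0.05). This fall was smaller than the limit for a call.

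TUBB4B, the class IVb isotype, is widely expressed and is also used in cilia. Its CON libraries were close together at 339, 340.2 and 344 TPM, and its CDCA libraries stood at 179.9, 189 and 177 TPM. The gap between the groups was thus many times the spread within either. The log2 fold change was -0.90 (limma FDR 8.5e-06, SE 0.04), with a 95% interval from -0.99 to -0.81 that stopped short of the limit for a call. When the genes encoded by mitochondrial DNA (mtDNA) were left out of the totals it was -1.06, past the limit. These genes made up between 13.8% and 15.03% of listed TPM in CON libraries and between 2.90% and 3.45% in CDCA libraries.

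TUBB6, the class V isotype, is usually a minor part of the beta tubulin of epithelial cells. It was listed at 65.85, 68.3 and 63.0 TPM in CON against 9.73, 18.9 and 10.5 TPM in CDCA. CDCA replicate 2 was the highest of its group and was still far below CON. The log2 fold change was -2.30 (limma FDR 0.00023, SE 0.22), and only 0.253% of the tested genes had a lower one. With CDCA replicate 2 left out it was -2.59, the lowest value with any single library left out.

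TUBA1C is one of the alpha tubulins, which pair with beta tubulin in the dimer. Its levels were 158, 165 and 146 TPM in CON against 156, 172 and 158 TPM in CDCA. The ranges of the groups overlapped, with CDCA replicate 2 above all CON libraries and CON replicate 3 below all CDCA libraries. The log2 fold change was 0.05, with a 95% interval from -0.09 to 0.19 (limma FDR 0.49), which leaves room for a small change in either direction. When the mtDNA-encoded genes were left out of the totals, it was -0.10.

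TUBG1 encodes gamma tubulin, the template from which microtubules grow. It was listed at 30.9, 34.8 and 31.5 TPM in CON against 28.7, 31.3 and 29.9 TPM in CDCA. The ranges overlapped, and the log2 fold change was -0.11 with a 95% interval from -0.25 to 0.04 (limma FDR 0.18). When the mtDNA-encoded genes were left out of the totals, a setting that lowers the median over all tested genes from 0.05 to -0.08, the limma FDR of TUBG1 was 0.00796 at a log2 fold change of -0.26.

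STMN1 encodes stathmin, which binds free tubulin dimers and favours the shrinking of microtubules, and which is abundant in dividing cells. Its CON libraries held 144, 139 and 131 TPM and its CDCA libraries 49.7, 41.1 and 51.5 TPM. No CDCA library came near the CON range. The mean fell from 138 ± 6.7 to 47.4 ± 5.5 TPM (SD, n = 3), a log2 fold change of -1.53 (limma FDR 3.0e-05, SE 0.09). Set against its binding partner, STMN1 stood at 4.55 ± 0.20 TPM (SD, n = 3) per 100 TPM of listed alpha and beta tubulin in CON and at 2.28 ± 0.34 TPM (SD, n = 3) in CDCA.

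TTLL12 belongs to the family of tubulin tyrosine ligase-like proteins, most of which add amino acids to tubulin tails. It was listed at 78.3, 82.0 and 87.3 TPM in CON against 60.4, 60.1 and 58.1 TPM in CDCA. The CDCA libraries were nearly level with each other and all lay under the CON range. The log2 fold change was -0.46 (limma FDR 0.00035, SE 0.05), a change too small to be called.

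MAPRE1 encodes EB1, which binds growing microtubule ends and recruits other proteins to them. It was the least abundant of the 8 genes, at 7.72, 9.76 and 10.9 TPM in CON against 11.4, 2.71 and 13.6 TPM in CDCA. Of the CDCA libraries, 2 were above every CON library, and CDCA replicate 2 was below all of them. The log2 fold change was therefore poorly determined, at -0.25 with a 95% interval from -1.44 to 0.94 (limma FDR 0.70), and without CDCA replicate 2 it was 0.37 (limma FDR 0.095).

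In CON, the order of the levels was TUBB, TUBB4B, TUBA1C, STMN1, TTLL12, TUBB6, TUBG1 and MAPRE1, and the ranges of no 2 neighbours overlapped. TUBA1C and STMN1 came closest, with a lowest TUBA1C value of 146 TPM against a highest STMN1 value of 144 TPM. In CDCA, STMN1 and TUBB6 each moved down by 1 place, so that the order read TUBB, TUBB4B, TUBA1C, TTLL12, STMN1, TUBG1, TUBB6 and MAPRE1. There TUBB6 and MAPRE1 overlapped in range.

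The makeup of the beta tubulin mRNA shifted with these changes. Over the 7 beta tubulin genes found, the listed TPM summed to 1069 ± 24 TPM in CON against 732 ± 35 TPM in CDCA (SD, n = 3), a ratio of 0.685. TUBB4B held 31.9% ± 0.80 (SD, n = 3) of this sum in CON and 24.9% ± 0.32 (SD, n = 3) in CDCA, and TUBB6 held 6.15% ± 0.15 and 1.77% ± 0.60 (SD, n = 3). TUBB took a larger share in CDCA, 41.6% ± 0.49 against 38.2% ± 0.76 (SD, n = 3). TUBB2B, deposited under this name but described as the beta-2A chain, took 31.4% ± 0.75 against 23.1% ± 0.92 (SD, n = 3), or 16.2% against 10.97% when the highest transcript of each gene replaced the sum. For each of these 4 isotypes the shares of the 2 groups did not overlap, and they are given as a description without a test.

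TUBB2B itself was listed at 234, 263 and 246 TPM in CON against 229, 236 and 225 TPM in CDCA. These ranges overlapped, and its log2 fold change of -0.10 had a limma FDR of 0.12. TUBB2B passed in 3 of 13 alternatives, namely with totals free of mtDNA-encoded genes (-0.26, limma FDR 0.0034), with median-ratio scaling (-0.15, limma FDR 0.041) and without CON replicate 1 (-0.14, limma FDR 0.045). TUBB3, the class III isotype best known from neurons, was weakly expressed and called lower, from 5.89 ± 0.82 to 2.38 ± 0.65 TPM (SD, n = 3). Its log2 fold change of -1.04 stood just past the limit, and it was -0.95 without CON replicate 3 and -0.87 without CDCA replicate 3. TUBB1 and TUBB4A stayed under 1 TPM and were not tested.

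**Figure D2:**
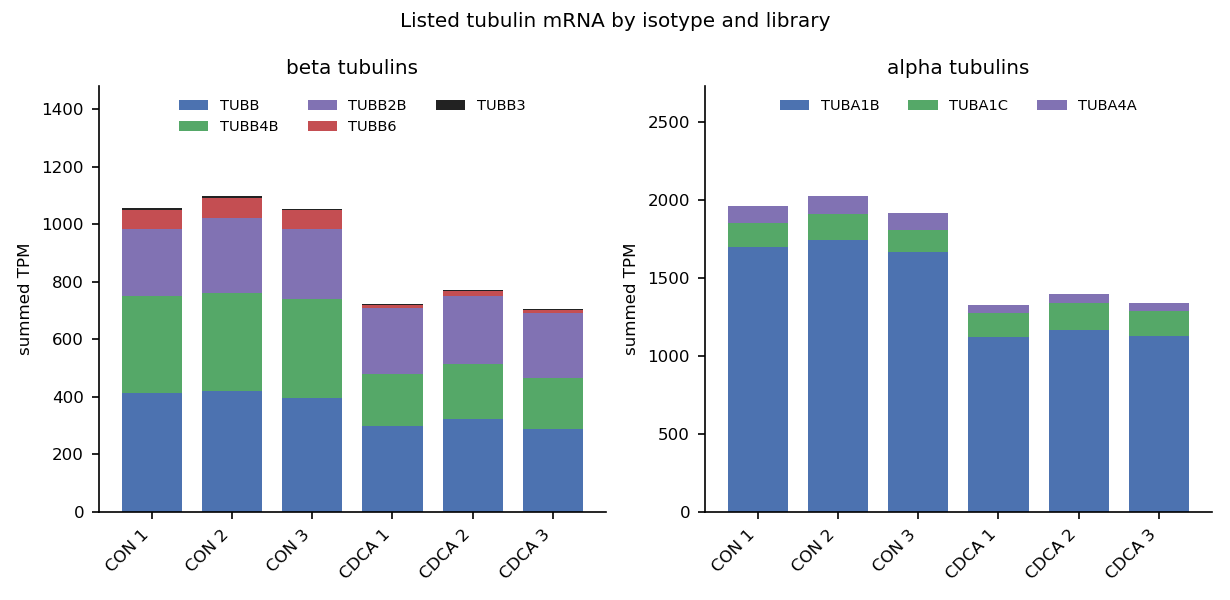
Stacked bars of the TPM of the expressed beta tubulins (left) and alpha tubulins (right) in each of the 6 libraries, with axes from 0. Both stacks are lower in all 3 CDCA libraries, and TUBB4B and TUBB6 take up a smaller part of the beta stack there, as the shares above state.

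Alpha tubulin mRNA was lower by nearly the same factor, although TUBA1C was not. The 4 alpha tubulin genes found summed to 1968 ± 52 TPM in CON against 1356 ± 39 TPM in CDCA (SD, n = 3), a ratio of 0.689. The ratio of alpha to beta tubulin was 1.84 ± 0.018 (SD, n = 3) in CON and 1.85 ± 0.046 (SD, n = 3) in CDCA. This sum and the values that rest on it leave out the further alpha tubulin IDs given at the end. TUBA1B, deposited under this name but described as alpha 1a, made up most of the alpha sum. It fell from 1702 ± 42 to 1138 ± 26 TPM (SD, n = 3), a log2 fold change of -0.58 (limma FDR 4.0e-05, SE 0.04). TUBA4A fell from 109.5 ± 1.9 to 55.6 ± 4.6 TPM (SD, n = 3), a log2 fold change of -0.97 (limma FDR 4.3e-05) that was past the limit without CDCA replicate 2 (-1.03), with totals free of mtDNA-encoded genes (-1.12) and with median-ratio scaling (-1.02). TUBA1C held 7.93% of the alpha sum in CON and 11.9% in CDCA. The coding sequences of tubulin isotypes resemble each other, so reads shared between them were divided by the authors' estimation, and the value of a single isotype is uncertain to that extent.

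**Figure D3:**
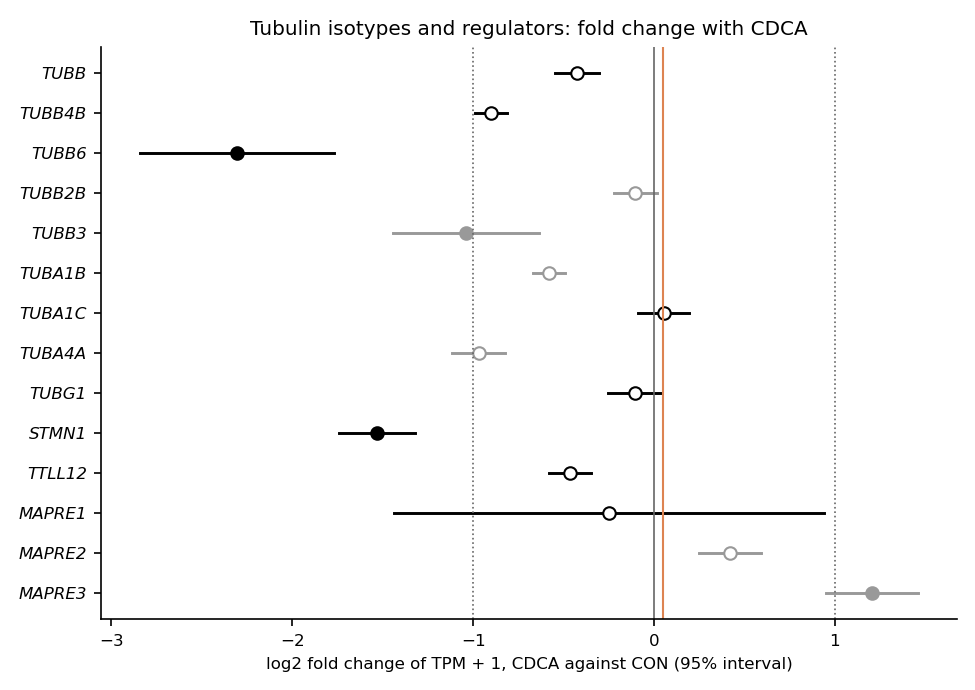
Log2 fold change of TPM + 1 in CDCA against CON, with 95% intervals from limma, for the 8 genes (black) and for related isotypes and EB proteins (grey). Filled points are called genes, dotted lines mark a log2 fold change of 1 in size, and the orange line marks the median of all tested genes at 0.05. TUBB6 and STMN1 lie furthest to the left, and the interval of MAPRE1 spans both directions.

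The listed transcripts of each gene were also compared one by one, ranked by their mean TPM within the gene. Both main TUBB4B transcripts fell, with log2 fold changes of -0.87 and -0.93, and the first held 63.6% of the gene's TPM in CON and 64.7% in CDCA. TUBB and STMN1 each had 1 transcript that held over 99% of the gene in both groups. The first TUBB6 transcript was listed at 50.75, 49.8 and 38.1 TPM in CON against 4.28, 16.0 and 5.56 TPM in CDCA, and the second at 15.1, 16.3 and 14.2 TPM in CON against 2.91, 2.80 and 2.43 TPM in CDCA. Both were called lower when each was tested by itself, with log2 fold changes of -2.48 and -2.13, and the higher value of CDCA replicate 2 was seen in the first only. The third TUBB6 transcript varied within CON from 0 to 10.6 TPM and did not pass the test.

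The transcripts of TUBG1 and TTLL12 are given one by one. In TUBG1, the first transcript was listed at 16.1, 15.6 and 13.8 TPM in CON against 15.7, 16.8 and 18.0 TPM in CDCA. The second was listed at 14.2, 17.3 and 17.1 TPM in CON against 10.6, 13.9 and 11.4 TPM in CDCA. The second fell by 0.41 on the log2 scale (limma FDR 0.035), and the first had a log2 fold change of 0.14 (limma FDR 0.20). In TTLL12, the main 2 transcripts fell with log2 fold changes of -0.52 and -0.42. The third, a minor one, rose from 1.17, 1.13 and 1.13 TPM in CON to 2.74, 1.82 and 2.52 TPM in CDCA (limma FDR 0.014). These fits of single transcripts were added after the data had been seen, and a difference in response between transcripts of a gene was not tested.

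**Figure D4:**
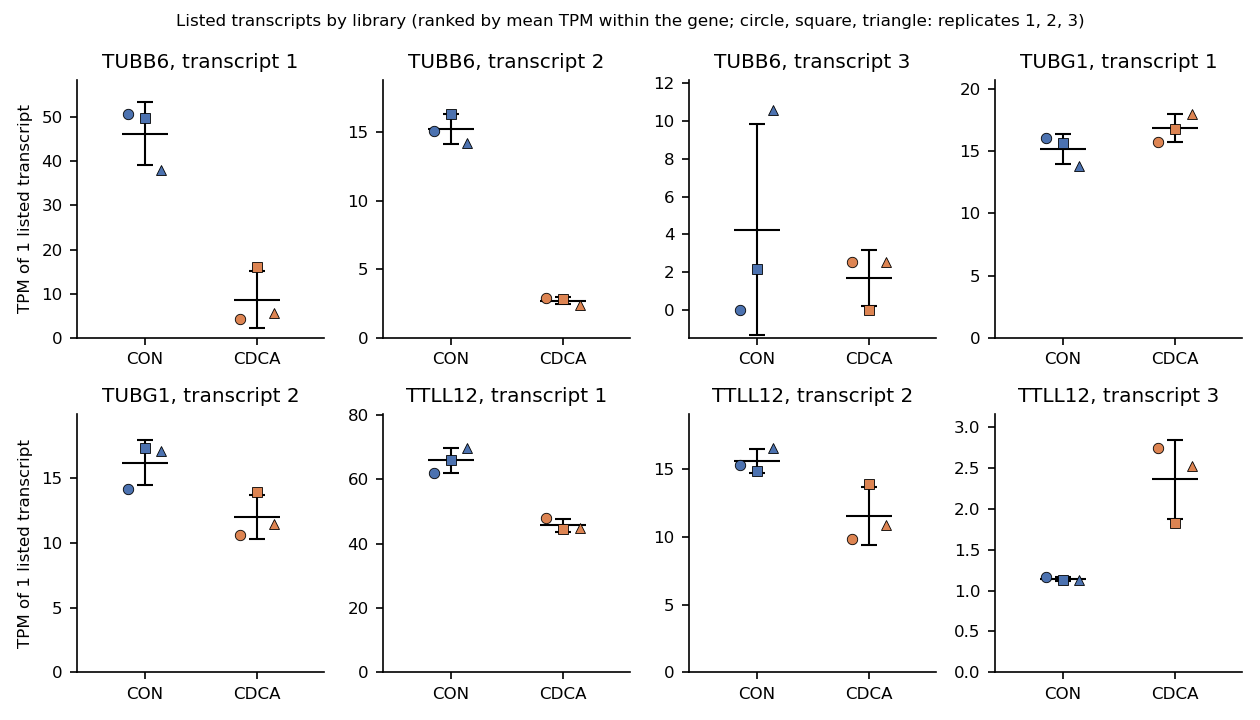
TPM of single listed transcripts of TUBB6, TUBG1 and TTLL12 in the 6 libraries, with mean and SD in black. Transcripts 1 and 2 of TUBB6 are lower in every CDCA library, the second of TUBG1 has groups that are apart while the first does not, and the third of TTLL12 is higher in every CDCA library.

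Of 172 genes in 8 lists that cover the wider microtubule system, 103 were tested, and 32 fell and 27 rose, with a median log2 fold change of -0.08. More of these genes fell than rose, whereas of all tested genes 23.9% fell and 29.3% rose. The lists below are to be read against the same shares. The balance of the list genes depended on the setting. That of all genes turned when mtDNA-encoded genes were left out, but hardly moved with the highest transcript. When mtDNA-encoded genes were left out of the totals, 46 of 103 fell and 15 rose, while over all 8885 genes then tested 2793 fell and 1781 rose. With the highest transcript, 28 of 92 fell and 15 rose, while over all 8207 genes then tested 1839 fell and 2174 rose. With any 1 library left out, between 19 and 21 of the list genes rose. Called genes numbered 13 lower and 2 higher, against 3.9% and 3.51% of all tested genes. Without the 8 genes above, 11 of 95 were called lower and 2 higher. The lists were written with earlier results known, so these counts are descriptions.

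Of 17 tested genes of the gamma-tubulin ring complex, the augmin complex and the minor tubulins, which start or branch microtubules, 8 fell, none rose and 9 did not pass the test, against 23.9% of all tested genes that fell and 29.3% that rose. HAUS4, a subunit of augmin, the complex that branches microtubules inside the spindle, was called lower, from 18.2, 17.8 and 14.8 TPM in CON to 4.44, 4.61 and 4.49 TPM in CDCA (log2 fold change -1.70, limma FDR 2.0e-05). HAUS8 and HAUS1, also of augmin, fell with log2 fold changes of -0.98 and -0.76, and HAUS8 was past the limit in 6 of 13 alternatives, among them those without CON replicate 3 (-1.03) and without CDCA replicate 3 (-1.04).

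Of 18 tested genes for the folding of tubulin and its autoregulation, 6 rose, 2 fell and none was called, against 29.3% of all tested genes that rose and 23.9% that fell. Those that fell were CCT6A (log2 fold change -0.37) and TCP1 (-0.18), subunits of the chaperonin that folds tubulin and actin, of which TCP1 did not pass without CDCA replicate 1 (limma FDR 0.054). TCP1 was named after its values were seen. PFDN1 had the highest log2 fold change, 0.86, but libraries spread from 2.60 to 8.32 TPM in CON and it did not pass (limma FDR 0.068). Its log2 fold change was 0.48 when CON replicate 1 was left out, and 1.16 when CON replicate 2 was, where it was called higher. PFDN2, a prefoldin subunit that delivers new tubulin to the chaperonin, rose from 19.1 ± 0.17 to 30.4 ± 1.0 TPM (SD, n = 3), and TBCA, a cofactor that holds beta tubulin, from 62.4 ± 11 to 81.5 ± 3.9 TPM (SD, n = 3). The rise of TBCA (limma FDR 0.028) did not pass in 9 of 13 alternatives, among them each library left out except CON replicate 3, with an FDR of up to 0.21. TTC5, which recognises newly made tubulin when its mRNA is degraded under excess of free dimers, had means of 0.0833 TPM in CON and 0.103 TPM in CDCA and was not tested.

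Of 6 tested genes of the stathmin and severing list, STMN1 included, 2 fell and 3 rose, against 23.9% and 29.3% of all tested genes. FIGNL1, a relative of the severing enzyme fidgetin, was called lower, from 5.07 ± 0.72 to 1.54 ± 0.48 TPM (SD, n = 3), though not with the highest transcript alone (log2 fold change -0.88), and SPAST, which encodes the severing enzyme spastin, rose from 6.53 ± 0.55 to 9.13 ± 0.68 TPM (SD, n = 3), though it did not pass with the highest transcript alone (limma FDR 0.28). The other rises were those of the severing genes KATNA1 (log2 fold change 0.38, limma FDR 0.03033) and FIGN (0.34, limma FDR 0.031), named after their values were seen, and neither passed without CON replicate 1, 2 or 3. FIGN also did not pass without CDCA replicate 1 or 3. The other stathmins, STMN2, STMN3 and STMN4, had means of at most 0.423 TPM in either group. STMN1 was thus the stathmin gene with substantial listed mRNA in these cells.

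Of 15 tested genes of the TTLL family and other enzymes that modify tubulin, on its tails or, as with the deacetylases HDAC6 and SIRT2, elsewhere, 6 rose and 2 fell, TTLL12 and TTLL4, against 29.3% and 23.9% of all tested genes. None was called, though AGTPBP1 (1.01) and TTLL4 (-1.04) were with a pseudocount of 0.1 TPM. TTLL12 was by far the most abundant of them. TTLL7, a glutamylase, rose from 3.81 ± 0.58 to 6.74 ± 0.78 TPM (SD, n = 3). AGTPBP1, which removes glutamates, rose from 1.34, 1.32 and 1.46 TPM in CON to 4.34, 2.83 and 1.92 TPM in CDCA (limma FDR 0.028). It did not pass in 6 of 13 alternatives, among them those without CON replicate 1, 2 or 3 or CDCA replicate 2 (limma FDR up to 0.073). TTLL4, another glutamylase, fell from 1.62 ± 0.18 to 0.767 ± 0.28 TPM (SD, n = 3), but did not pass without CON replicate 2 or without CON replicate 3 (limma FDR up to 0.055).

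Among 18 tested plus-end tracking genes, 8 rose and 3 fell, against 29.3% and 23.9% of all tested genes. MAPRE3, which encodes EB3, a close relative of EB1, was listed at 6.40, 8.63 and 6.95 TPM in CON against 17.45, 17.5 and 19.3 TPM in CDCA. It was called higher (log2 fold change 1.20, limma FDR 0.00016). CLIP1, whose product rides on EB proteins, was called higher as well, from 4.50 ± 0.66 to 11.2 ± 0.64 TPM (SD, n = 3). MAPRE2, picked after its values were seen, rose from 18.2 ± 1.2 to 24.6 ± 1.7 TPM (SD, n = 3), but did not pass with the highest transcript alone (limma FDR 0.16). Whether MAPRE1 differed from MAPRE2 and MAPRE3 in its response was not tested. The called falls in this list were those of CKAP2L and PSRC1, both best known from the mitotic spindle, with log2 fold changes of -1.21 and -1.18. That of PSRC1 was not past the limit without CDCA replicate 3.

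The structural and minus-end binding proteins showed small differences. Of 12 tested, 3 rose and 1 fell, against 29.3% and 23.9% of all tested genes, none was called, and log2 fold changes stayed between -0.28 and 0.55, the highest being those of EML2 (0.55), CYLD (0.51) and MTUS1 (0.38). MTUS1 (limma FDR 0.031) did not pass in 9 of 13 alternatives, among them each library left out except CDCA replicate 3. The log2 fold change of MTUS1 was as low as 0.083 over the alternatives. Of 9 tested genes for proteins of the mitotic spindle, 8 fell, against 23.9% of all tested genes, and 6 were called lower, against 3.9%, with a median log2 fold change of -1.38. SPAG5 was listed at 3.25, 3.85 and 2.39 TPM in CON against 0, 0 and 0.31 TPM in CDCA. CKAP2, NUSAP1, PRC1, HMMR and DLGAP5 had log2 fold changes between -1.77 and -1.26. The exception was NUMA1, which also acts in the interphase nucleus and rose from 6.62 ± 0.56 to 8.09 ± 0.63 TPM (SD, n = 3). Its rise (limma FDR 0.044) did not pass in 10 of 13 alternatives, among them each library left out except CDCA replicate 3.

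**Figure D5:**
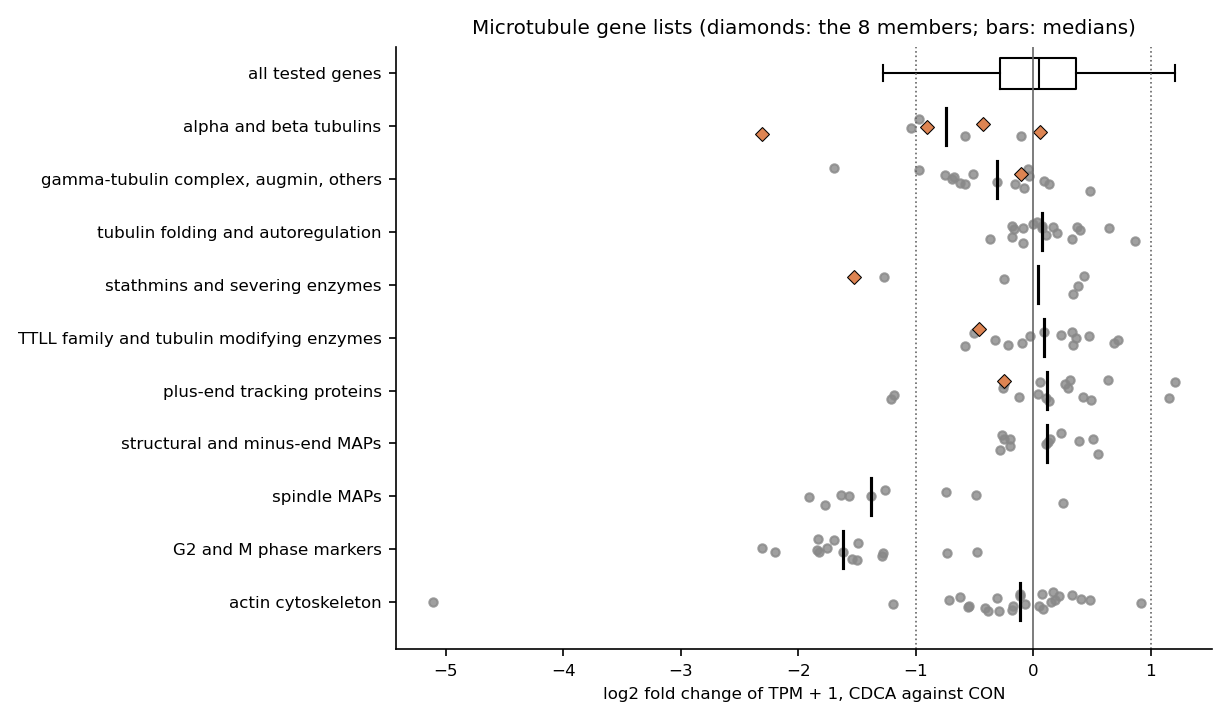
Log2 fold change of every tested gene of the 8 microtubule lists, the G2 and M phase markers and the actin list, with list medians as black bars and the 8 genes as orange diamonds. The box shows the quartiles of all tested genes and its whiskers the central 95%. Spindle proteins and G2 and M phase markers lie to the left, whereas folding, modifying and structural proteins lie around 0.

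Markers of dividing cells were lower in the CDCA libraries, as were TUBB6, STMN1, TUBB4B, TTLL12 and TUBB. All 15 tested G2 and M phase markers fell, against 23.9% of all tested genes, with a median log2 fold change of -1.62, and 13 were called lower, against 3.9%, with the lowest log2 fold changes in CDCA3 (-2.31), AURKB (-2.20) and CENPF (-1.84). Their summed level was 629 to 684 TPM in the CON libraries and 243 to 258 TPM in the CDCA libraries, and none was at 0 in all libraries. The part of the dividing cells in the fall of TUBB6, STMN1, TUBB4B, TTLL12 and TUBB was not tested.

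The actin cytoskeleton is the other filament system made from globular subunits. Of 26 tested actin genes, 10 fell and 5 rose, against 23.9% and 29.3% of all tested genes, with a median log2 fold change of -0.11. Of these, 2 were called lower, against 3.9% of all tested genes, ARPC5 (-5.11) and ACTN1 (-1.20). ARPC5 was listed at 65.8, 43.5 and 14.75 TPM in CON against 0, 0.07 and 0.07 TPM in CDCA, so the size of its change depends on the pseudocount (-7.94 with 0.1 TPM). CAPZA1, which caps actin filaments, rose from 0.88 ± 0.41 to 2.53 ± 0.63 TPM (SD, n = 3). Its log2 fold change of 0.91 was past the limit in 4 of 13 alternatives. These were a pseudocount of 0.1 TPM (1.47), listed TPM rescaled to 1000000 (1.26), and the fits without CON replicate 3 (1.09) and without CDCA replicate 1 (1.07). ACTB, often used as a reference gene, fell from 1241 ± 78 to 753 ± 43 TPM (SD, n = 3), a log2 fold change of -0.72 (limma FDR 0.00014), while GAPDH was listed at 247 ± 65 TPM in CON against 253 ± 33 TPM in CDCA (SD, n = 3). The ratio of CDCA to CON was 0.606 for ACTB, lower than for TUBB and TTLL12.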

How the data were processed

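mRNA of 6 IPEC-J2 libraries, 3 per group, was quantified by the authors with RSEM and deposited as TPM, in 63041 transcript rows under 31908 Ensembl pig gene IDs. The submitters' processing notes name Bowtie 0.12.2 and mm10, a mouse build, so no coordinates are given. The deposited table holds TPM only, so the number of reads behind a single value is unknown.

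TPM were summed per gene ID. Names were taken from the deposited table, then from a symbol table, and for 4 genes from the deposited description. One ID, named TUBA8 but described as PEX26, was left out. Genes whose mean reached 1 TPM were tested as log2(TPM + 1) with limma 3.58.1 (R 4.3.3, trended variance, two-sided, Benjamini-Hochberg FDR). The fit was first tried on simulated data with independent noise and fewer changed genes than here, which does not show how it performs on these data. The count test of the study's methods was not run because no counts were at hand. Isotype shares, sums and correlations were given without tests.

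The 8 genes and all lists were chosen with earlier results of these data known. Named genes were the 8 genes, all tested alpha and beta tubulins, the called genes and the 3 largest changes of each list, 2 similar genes for each of the 8, ACTB and GAPDH. The genes similar to MAPRE1 are not reported here. Other names were chosen after their values were seen. Alternatives covered the pseudocount, the filter, 3 scalings, the highest transcript, a replicate block and each library left out.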

Additional observations from a re-analysis of the deposited data

How the results depend on the processing

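Of 104 values of the 8 genes under 13 alternatives, 100 kept their direction and whether they were called. TUBB4B passed the limit with totals free of mtDNA-encoded genes (-1.06). The log2 fold change changed sign for TUBA1C (-0.10) and GAPDH (-0.0914) with these totals, for MAPRE1 without CDCA replicate 2 (0.37), for GAPDH without CON replicate 1 (-0.13) and without CDCA replicate 1 (-0.02), and with the highest transcript in place of the sum for TUBG1 (0.14) and TUBB2B (0.0048). Single transcripts, chosen after seeing the data, changed sign for TUBA1C (the second, -0.0347), TUBG1 (the first, 0.14) and TTLL12 (the third, 0.64). With any single library left out, GAPDH ranged from -0.13 to 0.25 and MAPRE1 from -0.61 to 0.37. The cause was not tested.

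Over all tested genes, 340 were called lower and 306 higher, against 505 and 509 with a pseudocount of 0.1 TPM, 481 and 523 with listed TPM rescaled to 1000000, which also tested more genes (10947), and 464 and 231 with totals free of mtDNA-encoded genes. With these last totals 2793 genes fell and 1781 rose, against 2085 and 2550. Of the 8 genes 6 then fell, TUBG1 among them. Actin genes called higher numbered 0, against 1 with that pseudocount, 2 with rescaled TPM and 0 to 1 with a library left out. With the highest transcript, TUBB held 53.8% of beta tubulin in CON and 59.0% in CDCA, TUBB2B 10.97% and 16.2%, and TUBB4B 28.6% and 22.9%.

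Libraries with the same number did not deviate together (r of -0.0353, -0.0916 and -0.0509). With 3 libraries per group this cannot tell whether they shared a culture or plate, and the labels do not say. With a replicate block, 343 genes were called lower and 309 higher, 2 of the 8 genes were called lower, and no result changed its direction or whether it was called, but of the genes said to have risen or fallen MTUS1, NUMA1, KATNA1 and FIGN no longer passed the FDR and 20 in place of 27 microtubule genes rose. TPM leave the counting error unknown, which bears most on MAPRE1 and other genes of a few TPM.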

Other observations

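Of 3 further alpha tubulin IDs without a deposited name, picked by their descriptions after the values were seen, 2 fell, against 23.9% of all tested genes. An ID described as the alpha-1D chain was listed at 8.87, 8.75 and 8.08 TPM in CON against 4.92, 4.92 and 3.80 TPM in CDCA, and it fell by 0.79 on the log2 scale (limma FDR 0.00085). An ID described as the alpha-3 chain was listed at 4.34, 2.86 and 2.44 TPM in CON against 0.89, 0.89 and 0.34 TPM in CDCA, and it was called lower (log2 fold change -1.30, limma FDR 0.0026). Neither had overlapping groups. Of all tested genes, 27.8% had every CDCA value under CON and 3.9% were called lower. Another ID with the alpha-3 description was listed at 0 in all 6 libraries.

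The tested genes whose log2(TPM + 1) followed 7 of the 8 genes most closely over the 6 libraries are given as a description, since the points share the 2 groups and 8708 genes were searched. TUBB4B was followed by BIRC5, which encodes survivin, a protein of the mitotic chromosomal passenger complex (Pearson r = 0.9998), and by an unnamed ID. TUBB was followed by AHCY (r = 0.9993) and C1QBP (r = 0.9984), and TUBB6 by the mitochondrial protein genes IMMT (r = 0.9967) and TST (r = 0.9957). STMN1 was followed by HS2ST1 (r = 0.9996) and WWC1 (r = 0.9992), and TTLL12 by EMC1 (r = 0.9986) and SLC25A1 (r = 0.9984). For TUBA1C and TUBG1, which did not pass the test, the closest values were lower, with AIF1 for TUBA1C (r = 0.979) and PPP4C for TUBG1 (r = 0.9762).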
